A study of Mus musculus with 11 samples.

Results

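The hearts described here had not been injured. Left ventricle from naive mice lacking Vegfc in myeloid cells was compared with left ventricle from naive control mice, over all genes counted. All libraries labelled as naive were taken, and no measured value entered the choice. This gave 5 of the 11 libraries of the study, 2 from naive controls (M44 and M45) and 3 from naive Vegfc-deficient mice (M149, M150 and M34). The other 6 libraries came from hearts after myocardial infarction (MI) by permanent coronary ligation, and they entered the fit to estimate the spread between libraries. The naive samples were matched to the infarcted ones in size and in their position in the ventricle.

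The genotype label of the deficient mice is Vegfc fl/fl ; LysMCre and that of the controls is Vegfc fl/fl. The collection protocol instead names LysMCre mice as the controls, so whether the controls carried Cre cannot be told from the labels. Ages, litters and the number of Cre copies are not stated in the sources used here. Nothing says that the libraries came from separate litters or days, so p-values measure only the spread between these libraries.

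VEGFC is a secreted growth factor that acts mainly through the receptor VEGFR3, encoded by Flt4, and drives the growth of lymphatic vessels. It is made as a precursor, and Ccbe1 and Adamts3 take part in its activation. LysMCre places Cre recombinase in the Lyz2 locus, which encodes lysozyme M, so that floxed genes are deleted in macrophages, neutrophils and part of the monocytes. The uninjured ventricle holds macrophages, lymphatic and blood endothelial cells, fibroblasts and pericytes, while most of its RNA comes from cardiomyocytes.

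The whole tissue did not report the deletion of Vegfc. Expression of Vegfc (ENSMUSG00000031520; GRCm38 chr8:54077606-54187096) came to 25.1 CPM (read counts scaled to the size of the library) in M44 and 34.7 CPM in M45, the control libraries. Values of 27.5, 34.5 and 30.6 CPM were counted in M149, M150 and M34. The groups overlapped, and the log2 fold change between deficient and control hearts was 0.05 (95% confidence interval -0.59 to 0.68, edgeR quasi-likelihood F test, Benjamini-Hochberg adjusted p = 1). Vegfc counts from cells that do not use Lyz2 are part of this value, and the size of their part was not tested. In bulk tissue, fewer cells of a type and less RNA per cell cannot be told apart.

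Lyz2 set 1 library apart from the rest of its group. Its expression was 2121 and 2282 CPM in the controls, and in M150 and M34 it was 72.5 and 245 CPM, respectively. By contrast the library labelled naive Vegfc-deficient M149 held 4565 CPM, above both controls. The log2 fold change of Lyz2 was -0.44 (SE 1.61, adjusted p = 1, edgeR) with all libraries and -3.79 (SE 1.53, adjusted p = 0.686, edgeR) without M149. M149 is therefore called the library labelled naive Vegfc-deficient M149, and results that rest on it are given with and without it. Whether the level of Lyz2 in a library follows its genotype or its content of macrophages was not tested. Lyz1, the neighbouring gene for the lysozyme of Paneth cells, was at 68.2 and 71.1 CPM in the controls and at 112, 85.0 and 34.5 CPM in M149, M150 and M34, with the groups overlapping. Since Lyz1 and Lyz2 are close copies of each other, reads that the counting could not place on 1 of them make both values uncertain.

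The 250 bases before the start of each lysozyme gene are shown because Lyz2 is the locus that carries Cre and its levels differed widely between libraries, while those of its neighbour did so far less. They are from RefSeq on GRCm38.p6, on the minus strand, at chr10:117282273-117282522 for Lyz2 and chr10:117292869-117293118 for Lyz1. Capitals mark ACTTCCTG, a sequence of the type bound by ETS factors, the family of the myeloid factor PU.1. Both strands were searched, and the reverse complement is CAGGAAGT.
Lyz2: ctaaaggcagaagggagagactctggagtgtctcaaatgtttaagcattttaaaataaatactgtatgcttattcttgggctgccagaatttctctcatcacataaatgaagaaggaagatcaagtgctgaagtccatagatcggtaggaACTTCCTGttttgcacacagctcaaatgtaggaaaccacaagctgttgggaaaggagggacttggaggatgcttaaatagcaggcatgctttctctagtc
Lyz1: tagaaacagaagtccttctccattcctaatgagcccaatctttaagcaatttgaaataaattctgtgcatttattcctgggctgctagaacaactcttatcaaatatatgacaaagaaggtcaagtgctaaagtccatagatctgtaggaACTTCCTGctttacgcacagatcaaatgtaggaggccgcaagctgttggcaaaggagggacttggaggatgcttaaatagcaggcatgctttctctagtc
The match begins 100 bases before the start of both genes. It is present in this window of 884 of 32851 promoters (2.69%). In the last 100 bases the genes share 92 positions. The match is a description of these letters and was not tested for binding.

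The naive libraries held 10824989 to 14585642 counts, and there 3 counts, taken as the floor, correspond to 0.244 to 0.363 CPM (counting error only). The sum of 4 Y-linked genes was 152 to 195 CPM in all 5 naive libraries. Of the tissue's own markers, the genes of the ventricular sarcomere were abundant in every naive library. Of the 8 atrial and conduction markers, Sln and Bmp10 had 0 or 1 count, and the summed level of the 6 tested was 409 to 1263 CPM, of which Nppa, which ventricles make too, held 387 to 1240 CPM. Of the 8 lung epithelial markers, Sftpa1, Sftpb, Sftpc, Sftpd and Cldn18 had 0 counts in every naive library. The 3 tested summed to 622 to 823 CPM, nearly all from Hopx (619 to 823 CPM), which cardiomyocytes also express.

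The baseline ventricle was dominated by genes for contraction and energy supply. Myoglobin (Mb), the oxygen store of muscle, took 2.93% to 3.55% of all counts. It was followed by Myl2, the ventricular regulatory myosin light chain, at 1.80% to 2.30%. The troponin gene Tnnt2 took 1.11% to 1.30% and the tropomyosin gene Tpm1 1.06% to 1.40%. The remaining leading genes included those for cardiac actin (Actc1), the mitochondrial ADP/ATP carrier (Slc25a4), the calcium pump of the sarcoplasmic reticulum (Atp2a2) and its inhibitor phospholamban (Pln). Fabp4, a fatty acid-binding protein of the heart's capillaries, was also among the 20 genes with the most counts. These 20 genes held 16.6% to 18.7% of the counts of a library, and the 10 leading genes held 12.0% to 13.8%.

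**Figure D1:**
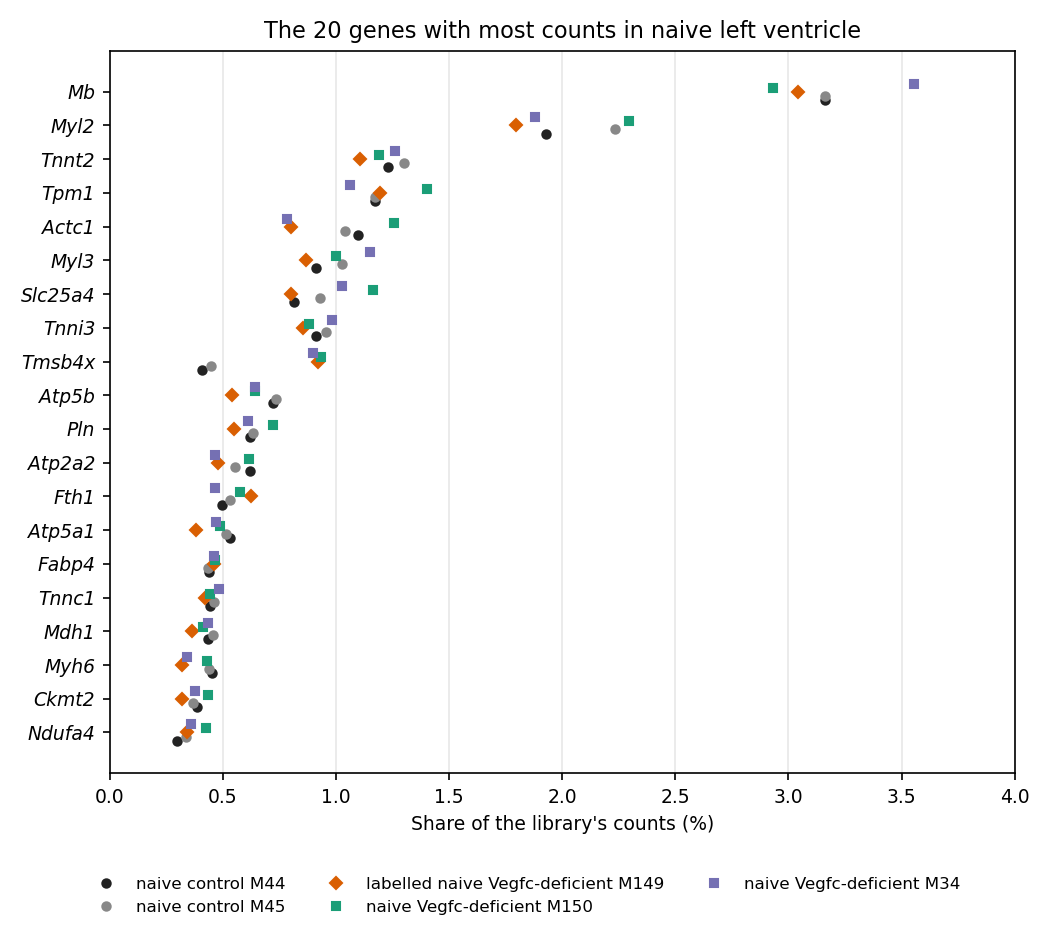
Share of all counts (%) taken by each of the 20 genes with the most counts, 1 point per naive library. Mb led in every library, and Tmsb4x was the gene of the 20 with the 3 libraries labelled Vegfc-deficient (0.901% to 0.934%) apart from both controls (0.408% and 0.448%) by the widest gap.

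When levels were set per kilobase of exon, short transcripts of the respiratory chain moved up. Mb stayed first at 21253 CPM per kilobase (mean of 5 libraries), and Myl2 was second at 10392. Cox8b, a muscle subunit of cytochrome c oxidase, followed at 6190, and Cox6a2, Cox7a1, Cox6b1 and Cox7b of the same complex were also among the leading 20. On this scale 11 of the 20 genes were the same as by count. No count was listed for the 13 protein-coding mitochondrial genes, so this ranking covers nuclear genes.

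The 2 control libraries were closer to each other than the deficient libraries were. Among 9585 genes with a mean of at least 10 CPM, 53 (0.553%) differed more than 2-fold between M44 and M45, and 102 (1.06%) between M150 and M34. Between the library labelled naive Vegfc-deficient M149 and its own group, 398 genes (4.15%, M150) and 411 genes (4.29%, M34) did. Every pair across the genotypes lay between these, at 141 (1.47%, M45 and M149) to 274 (2.86%, M44 and M150). No pair was 1 library deposited more than once, since the least different pair, M44 and M45, still had a chi-square of 8.65 per gene.

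**Figure D2:**
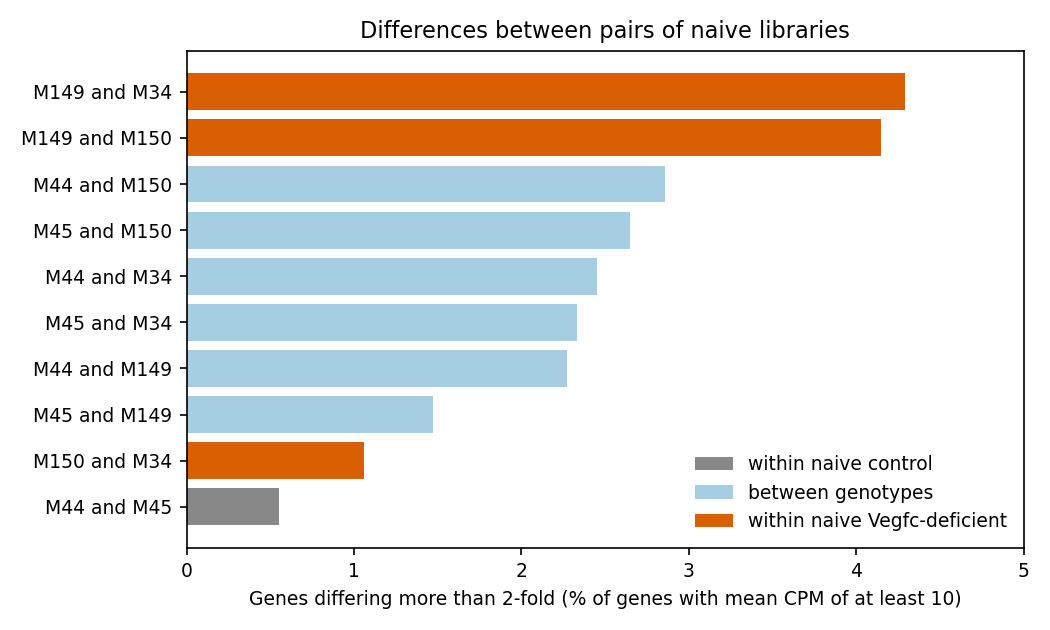
Genes that differed more than 2-fold between a pair of naive libraries, as a percentage of the 9585 genes with a mean of at least 10 CPM. Orange bars are pairs of Vegfc-deficient libraries, and the pairs of M149 with M34 and M150 are the longest bars, at 4.29% and 4.15%.

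Over the 5 naive libraries the median gene ranged over 0.449 on the log2 scale, and 171 genes (1.78%) ranged over more than 2. The 10 genes with the widest ranges did not share 1 pattern. F10, Slamf7, Arg1 and Tmem26 were high in M44 and M45, higher still in M149 and low in M150 and M34. Slamf7, a receptor of leukocytes, was at 33.3 and 37.3 CPM in the controls and at 92.2, 0.726 and 2.60 CPM in M149, M150 and M34. Arg1, the macrophage arginase, was at 60.2 and 69.0 CPM in the controls and at 184, 2.42 and 7.73 CPM. Others followed neither Lyz2 nor the groups closely. Gdpd3 was at 3.84 CPM in M44 and at 194 to 436 CPM in the other 4 libraries, and Rpl26 was at 6.42 CPM in M44 and at 192 to 447 CPM elsewhere, with the control M45 just below M34. Gm15772 was at 145 and 87.3 CPM in the controls and at 1.57, 3.75 and 96.8 CPM in M149, M150 and M34.

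When the deficient naive hearts were set against the controls, edgeR's quasi-likelihood test called 0 of 14779 genes (0%) at an adjusted p under 0.05. At an unadjusted p under 0.05 there were 499 genes (3.38%), of which 304 (2.06%) were higher and 195 (1.32%) lower in the deficient hearts. The DESeq2 Wald test called 14 genes (0.0947%), 12 higher (0.0812%) and 2 lower (0.0135%). limma-voom with quality weights called 6 (0.0406%). In 3306 genes (22.4%) the groups did not overlap, 1819 (12.3%) with all deficient libraries above both controls and 1487 (10.1%) below. With 2 against 3 libraries an exact permutation test cannot give a p below 0.1, so separation is a description. The 5 libraries can be split into 2 and 3 in only 10 ways. Many genes would thus have groups apart without any difference between genotypes.

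A set of genes differed alike in all 3 libraries labelled Vegfc-deficient, M149 included. The genes of smallest p were picked among those whose groups did not overlap. That M149 lies on the side of M150 and M34 in them was therefore set by the choice. The widest difference was in Rpl30, a gene for a protein of the large ribosomal subunit. It was at 14.9 and 14.6 CPM in the controls and at 422, 434 and 344 CPM in M149, M150 and M34. The groups were far apart, with a log2 fold change of 4.76 (SE 1.01, unadjusted p = 0.000721, adjusted p = 1, edgeR). DESeq2 gave an adjusted p of 0.000337, and edgeR on the naive libraries alone gave 0.000296. After MI, Rpl30 was at 8.76 CPM in the control library M38 and at 89.4 to 184 CPM in the other 5, so a low level was not particular to naive controls. Genes of ribosomal proteins have near-identical copies elsewhere in the genome, and how reads shared with them were counted is not stated in the sources used here. Rps6, which has such copies too, was at 0.362 to 1.18 CPM and Gapdh at 4.36 to 7.55 CPM across the naive hearts. The level of Rpl30 is uncertain for this reason.

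Baiap2l1, which encodes a regulator of the actin cytoskeleton at the membrane, differed in the opposite direction. It was at 122 and 135 CPM in the controls and at 9.31, 9.08 and 7.65 CPM in M149, M150 and M34. Its log2 fold change was -3.89 (SE 0.97, adjusted p = 1, edgeR on all libraries), and the fit of the naive libraries alone gave an adjusted p of 0.000296. After MI it was at 59.0 CPM in the control library M40 and at 3.61 to 5.94 CPM in the other 5 libraries. Rpl30 and Baiap2l1 were the 2 genes of 13541 (0.0148%) called by edgeR with the naive libraries alone.

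Lrrc27 had the smallest p of all genes. It was at 13 and 15.6 CPM in the controls and at 48.4, 36.8 and 43.9 CPM in M149, M150 and M34, with the groups well apart. The log2 fold change was 1.59 (SE 0.20, adjusted p = 0.158, edgeR), and it passed the threshold by DESeq2 (adjusted p = 9.51e-08), by limma-voom (adjusted p = 0.00394) and by edgeR without M149 (adjusted p = 0.0467). Nedd1, which brings gamma-tubulin to the centrosome, was at 24.6 and 27.7 CPM in the controls and at 42.0, 43.3 and 44.8 CPM in the deficient libraries. Its log2 fold change was 0.73 (SE 0.12, adjusted p = 0.499, edgeR), and DESeq2 called it with an adjusted p of 0.00422. The 3 deficient libraries differed by less than the gap to the controls for both genes.

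Of the other genes with the smallest p and the deficient libraries on top, Fmn1 encodes an actin-nucleating formin and Edn1 the vasoconstrictor endothelin-1. Fmn1 was at 6.51 and 4.08 CPM in the controls and at 12.2, 18.6 and 14.2 CPM in M149, M150 and M34 (log2 fold change 1.499, SE 0.27, adjusted p = 0.728, edgeR). Edn1 was at 4.46 and 3.62 CPM against 7.84, 7.75 and 10.2 CPM (log2 fold change 1.09, SE 0.22, adjusted p = 1, edgeR). The groups were apart in both. Il15, a cytokine that maintains natural killer cells and memory T cells, is named after its values were seen, as 1 of the genes called by limma-voom (adjusted p = 0.0418). It was at 55.6 and 60.4 CPM in the controls and at 118, 144 and 142 CPM in the deficient libraries, with a log2 fold change of 1.21 (SE 0.29) in edgeR.

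On the lower side, Capns1, the small regulatory subunit of calpain, was at 459 and 434 CPM in the controls and at 294, 276 and 276 CPM in M149, M150 and M34. Its log2 fold change was -0.66 (SE 0.16, adjusted p = 1, edgeR), and DESeq2 called it with an adjusted p of 0.000166. Gstp1, a glutathione transferase, was at 120 and 128 CPM against 57.3, 75.9 and 52.9 CPM. In both genes the 3 deficient libraries lay together below the controls. Depp1 was at 194 and 232 CPM against 73.2, 106 and 79.3 CPM. Arc, an immediate early gene of neurons, was at 8.29 and 7.97 CPM against 1.76, 1.33 and 1.30 CPM. Cenpf, a centromere protein of dividing cells, was at 23.4 and 15 CPM against 7.26, 7.02 and 7.32 CPM, while the median log2 fold change of the 13 genes of the cell cycle list was 0.00073. The log2 fold changes of these 4 genes were -0.998, -1.31, -2.47 and -1.41, and DESeq2 called Cenpf among them (adjusted p = 0.0307).

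**Figure D3:**
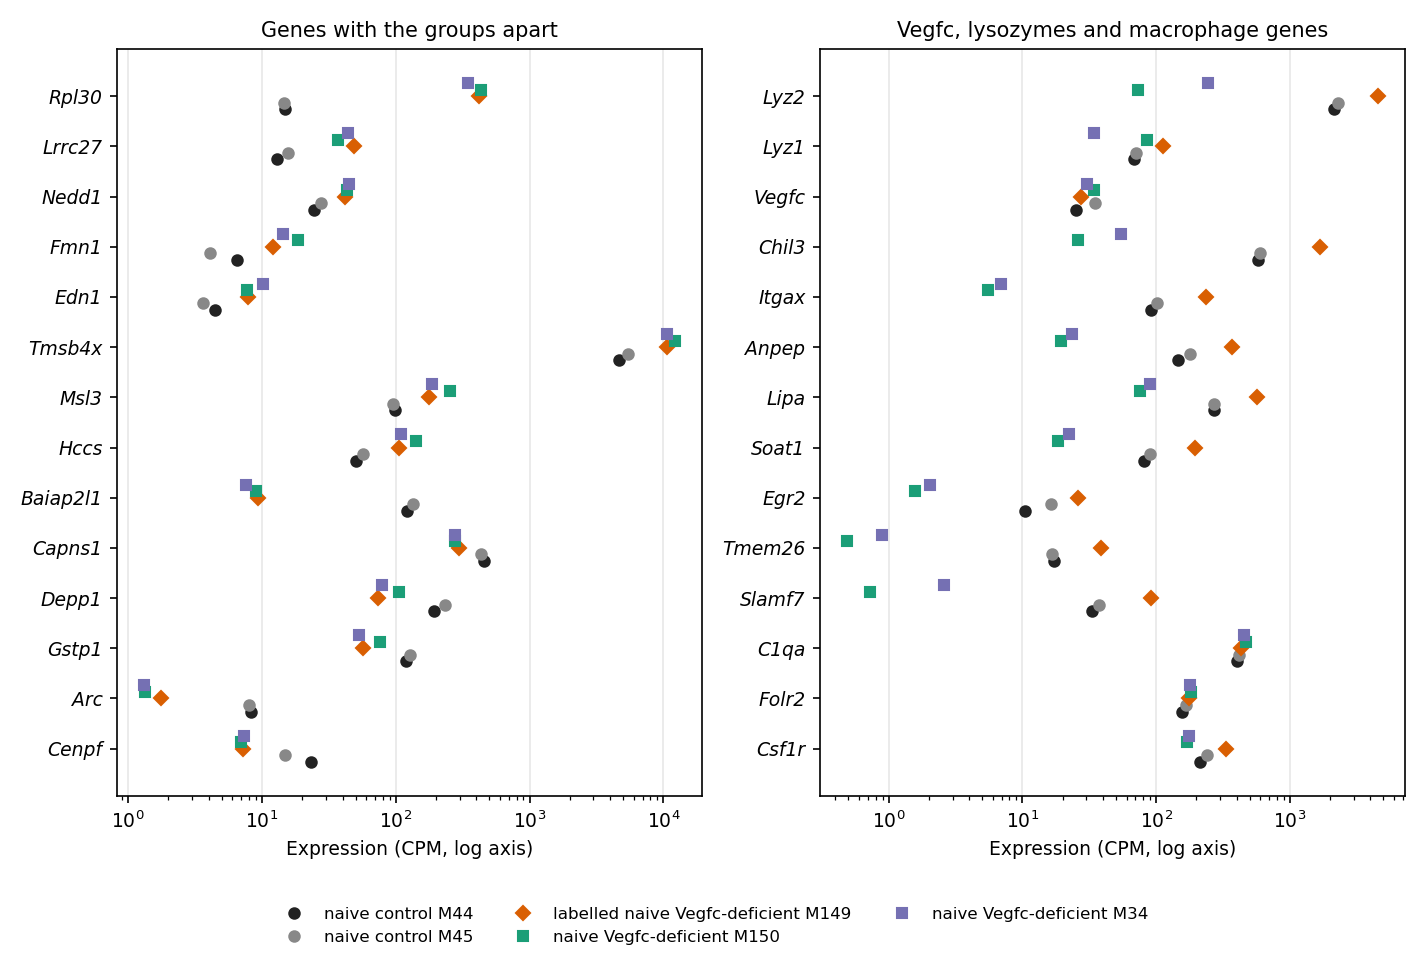
Expression in CPM (log axis) of each naive library, 1 point per library. On the left are genes shown because their groups were apart, so the 3 libraries labelled Vegfc-deficient, M149 included, lie apart from both controls by choice. On the right M149 lies beside or above the controls for Lyz2 and for Chil3, Itgax, Anpep, Lipa, Soat1, Egr2, Tmem26 and Slamf7, while C1qa, Folr2 and Vegfc are level.

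At the distal end of the X chromosome a run of adjacent genes was about 2-fold higher in the deficient hearts. This stretch was picked after its values were seen. From Tmsb4x to Hccs (GRCm38 chrX:167207093-169320372) 7 genes were tested, 6 of them had an unadjusted p under 0.05 with a higher level, and the same 6 had groups apart. The median log2 fold change of the 7 genes was 1.09, and 1.18 without M149. In the 4 Mb before Tmsb4x, 0 of 18 genes had an unadjusted p under 0.05 and the median was 0.07. Of the 2 genes tested beyond Hccs, 0 did, with a median of 0.49. G530011O06Rik, 1 of these, had a log2 fold change of 0.92 (unadjusted p = 0.0812, edgeR), and of 1.27 without M149 (unadjusted p = 0.0103, edgeR).

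The most abundant gene of the stretch was Tmsb4x, which encodes thymosin beta 4, a protein that binds actin monomers. It was at 4661 and 5410 CPM in the controls and at 10619, 12233 and 10689 CPM in M149, M150 and M34, with a log2 fold change of 1.15 (SE 0.32, adjusted p = 1, edgeR; adjusted p = 3.12e-06, DESeq2). Msl3, a subunit of a histone acetyltransferase complex, was at 98.7 and 95.2 CPM against 177, 255 and 185 CPM (log2 fold change 1.09, SE 0.18, adjusted p = 0.499, edgeR). Both genes showed the 3 deficient libraries above both controls. Hccs, which attaches haem to cytochrome c, was at 50.4 and 57.0 CPM against 106, 141 and 110 CPM (log2 fold change 1.15, SE 0.20, adjusted p = 0.499, edgeR). Prps2, an enzyme that makes the precursor of nucleotides, was at 28.3 and 14.5 CPM against 53.5, 71.7 and 42.7 CPM (log2 fold change 1.39).

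The endosomal RNA sensor Tlr7 was at 24.3 and 28.3 CPM in the controls and at 62.7, 42.7 and 40.4 CPM in M149, M150 and M34, with a log2 fold change of 0.88. Arhgap6, a GTPase-activating protein, was at 9.01 and 10.3 CPM against 20.5, 12.6 and 14.2 CPM, with a log2 fold change of 0.70, and 0.47 without M149. The 1 gene of the stretch that did not follow was Tlr8, another RNA sensor, at 24.4 and 18.3 CPM in the controls and 48.8, 6.17 and 5.94 CPM in the deficient libraries. As for Lyz2, M149 was highest, M150 and M34 were lowest, and the controls lay between. After MI the median log2 fold change of the 7 genes was -0.19, and the interaction of genotype and MI had an adjusted p of 0.53 for each of Tmsb4x, Msl3, Hccs, Prps2 and Tlr7. Over the whole X chromosome 22 of 496 genes (4.44%) had an unadjusted p under 0.05, near the 3.38% of all genes. Xist, the RNA that silences an X chromosome in female cells, was at 0.624 and 1.27 CPM in the controls and at 1.76, 8.11 and 11.8 CPM in M149, M150 and M34. The log2 fold change of Xist was 2.93 (SE 0.74, adjusted p = 1, edgeR), and 3.40 without M149 (adjusted p = 0.0467, edgeR).

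**Figure D4:**
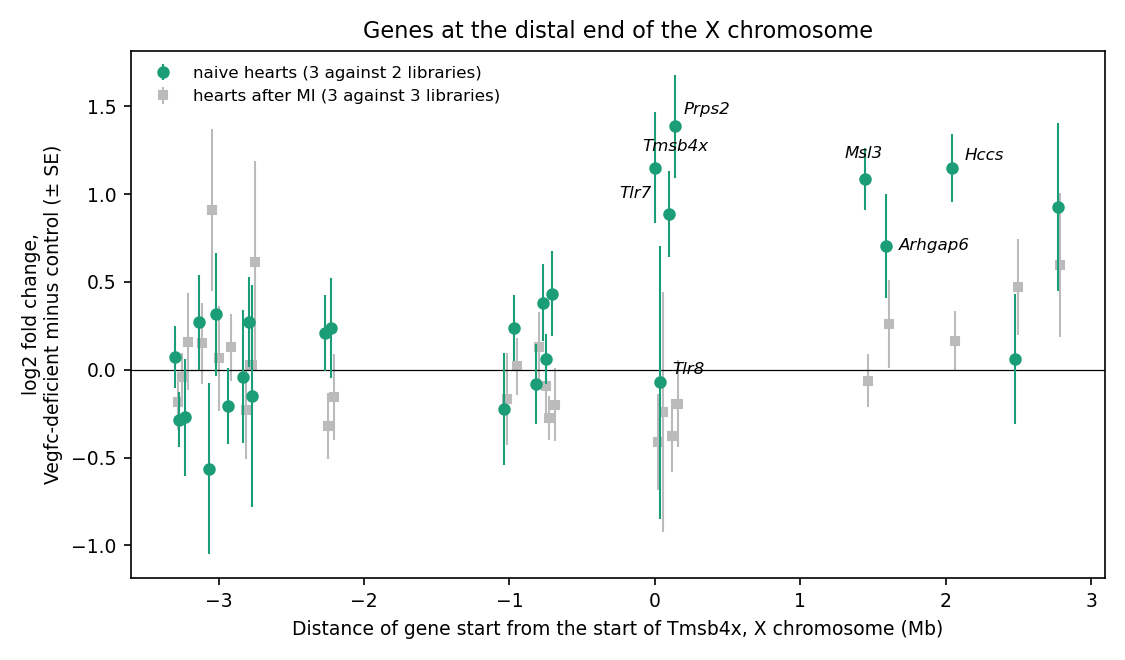
log2 fold change (Vegfc-deficient minus control, ± SE) of each tested gene at the distal end of the X chromosome against the distance of its start from that of Tmsb4x in Mb, for naive hearts (circles) and hearts after MI (squares, drawn slightly to the right). In naive hearts Tmsb4x, Prps2, Tlr7, Msl3, Arhgap6 and Hccs lie between 0.70 and 1.39, while the 18 genes before them have a median of 0.07.

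Other stretches were compared in windows of 10 Mb with at least 15 genes. In the 242 windows the median share of genes with an unadjusted p under 0.05 was 3.04%. It was highest in chr15:30000001-40000000, with 8 of 47 genes (17%, Rpl30 and Cthrc1 among them), and next in the window of the distal X chromosome with 6 of 40 (15%). Around Vegfc, 25 of 307 genes within 30 Mb (8.14%) had an unadjusted p under 0.05, 17 higher and 8 lower. Around Lyz2, 12 of 222 genes within 30 Mb did (5.41%), 4 higher and 8 lower. These windows were read after the values were seen and carry no test.

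A second set of genes followed Lyz2 over the libraries, high in M44, M45 and M149 and low in M150 and M34. Without M149, which leaves 2 against 2 libraries, edgeR called 17 of 14779 genes (0.115%), 4 higher (0.0271%) and 13 lower (0.088%). At an unadjusted p under 0.05 there were 985 genes (6.66%), 388 higher (2.63%) and 597 lower (4.04%). M149 was set aside after its Lyz2 level was seen. Calls and list medians without it rest on that choice where genes follow Lyz2, and they are a description. Among the 13 lower genes were Anpep, Tmem26, Egr2, Hpse, Lipa, Sort1, B430306N03Rik, Soat1, Itgax, Dock2, Csf2rb2 and Slc29a3, several of which are used by phagocytes. Itgax, the integrin CD11c of alveolar macrophages and dendritic cells, was at 91.1 and 102 CPM in the controls and at 235, 5.57 and 6.92 CPM in M149, M150 and M34. Its log2 fold change was -3.94 (SE 0.55, adjusted p = 0.0467, edgeR) without M149 and -0.23 (SE 1.21, adjusted p = 1, edgeR) with it. The library labelled naive Vegfc-deficient M149 was thus highest of all, and the groups overlapped.

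Anpep, the aminopeptidase CD13 of myeloid cells, was at 145 and 178 CPM in the controls and at 371, 19.5 and 23.4 CPM in M149, M150 and M34. Lipa, the lysosomal acid lipase, was at 271 and 272 CPM against 567, 75.3 and 90.2 CPM. Soat1, which esterifies cholesterol, was at 80.5 and 89.2 CPM against 196, 18.5 and 22.1 CPM. All 3 genes took the order of Lyz2. Without M149 their log2 fold changes were -2.91, -1.71 and -2.06 (adjusted p = 0.016, 0.0467 and 0.0467, edgeR), and with M149 they were -0.23, -0.15 and -0.10. Egr2, a transcription factor of macrophages and other cells, was at 10.4 and 16.3 CPM against 26.2, 1.57 and 2.03 CPM. The 4 genes that were higher without M149 were Plekha7, Xist, Col8a2 and Lrrc27. Plekha7, a protein of adherens junctions, was at 1.25 and 0.815 CPM in the controls, 0.490 CPM in M149 and 11.9 and 8.30 CPM in M150 and M34.

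The alveolar macrophage list moved most when M149 was left out. Its median log2 fold change over 8 genes tested was -0.03 with all libraries and -3.46 without M149. Without M149, 5 of the 8 had an unadjusted p under 0.05 on the lower side (edgeR, 4.04% of all genes did). M149 was set aside for its Lyz2 level, which genes of this list follow, so the values without it are a description. The summed level of the list was 965 and 994 CPM in the controls and 2551, 85.5 and 150 CPM in M149, M150 and M34. Chil3, a chitinase-like protein of macrophages, made up most of it, at 580 and 601 CPM in the controls and 1679, 26.0 and 54.2 CPM. Atp6v0d2, a subunit of the proton pump of macrophages and osteoclasts, was at 213 and 205 CPM against 571, 6.90 and 23.4 CPM. Siglecf, a surface marker of alveolar macrophages and eosinophils, stayed at 0.121 to 2.65 CPM, and Ear1 had 0 or 1 count in each library. Gpnmb, Ctss and Mmp12, named after their values were seen, were likewise highest in M149 and lowest in M150 and M34. Gpnmb, a glycoprotein of lipid-laden macrophages, was at 931 and 1325 CPM against 2799, 45.1 and 162 CPM.

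Markers of resident cardiac macrophages differed far less. Of 14 genes, 13 were positive and 0 had an unadjusted p under 0.05, and the median log2 fold change was 0.09. Without M149 the median was 0.11, but 8 genes were positive and 6 negative. C1qa, a subunit of complement C1q, was at 403 and 415 CPM in the controls and at 431, 466 and 453 CPM in M149, M150 and M34. Folr2, the folate receptor of resident macrophages, was at 156 and 168 CPM against 174, 182 and 178 CPM. In both genes the deficient libraries, M149 included, lay just above the controls, as in 4 of the 14 genes (12.3% of all genes were apart on this side). Csf1r, the receptor for the macrophage growth factor CSF-1, was at 211 and 239 CPM against 332, 169 and 177 CPM, a narrower form of the order of Lyz2. The summed level of the 14 genes was 2701 to 3081 CPM.

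Genes of fibroblast activation lay on the higher side in the deficient hearts, with M150 and M34 above M149 for most. All 12 of the list had a positive log2 fold change, against 52.4% of all genes, with a median of 0.82, and 1.01 without M149. At an unadjusted p under 0.05, 6 of 12 were higher (2.06% of all genes were), and in 5 the groups did not overlap on the higher side (12.3% of all genes). None passed the adjusted threshold in edgeR. As with every list here, its genes were chosen with earlier results of these data known, so these shares are a description. The 11 genes other than Fn1 stayed positive without M149. The list's median log2 CPM was 3.84 and 3.91 in the controls and 3.70, 4.49 and 4.98 in M149, M150 and M34. By this measure M149 lay below both controls. The summed level was 720 and 665 CPM in the controls and 1074, 971 and 1160 CPM in M149, M150 and M34, so there M149 lay above both.

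Cthrc1, a secreted protein of activated fibroblasts, was at 1.69 and 2.08 CPM in the controls and at 3.92, 10.2 and 24.7 CPM in M149, M150 and M34 (log2 fold change 2.78, SE 0.73, adjusted p = 1, edgeR; adjusted p = 0.0112, DESeq2). Postn, periostin of the matrix made by activated fibroblasts, was at 189 and 142 CPM against 205, 395 and 514 CPM (log2 fold change 1.16, SE 0.41). Ltbp2, a matrix protein related to fibrillins, was at 9.01 and 8.97 CPM against 11.6, 20.7 and 27.1 CPM. In Postn and Ltbp2 M149 lay just above the controls, and in all 3 genes it was the lowest of the deficient libraries. Comp, a cartilage matrix protein, was at 2.76 and 2.45 CPM against 4.22, 5.81 and 11.4 CPM. Meox1, a transcription factor of activated fibroblasts, was at 50.7 and 38.3 CPM against 66.3, 72.6 and 69.6 CPM. Lox, which crosslinks collagen, was at 8.29 and 12.8 CPM against 12.5, 23.0 and 40.9 CPM, and here M149 overlapped the controls. Without M34 the log2 fold changes of Comp and Lox went from 1.46 to 0.94 and from 1.28 to 0.75. The levels after MI were far above these, with Postn at 6711 to 10307 CPM in the 6 MI libraries.

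The structural genes of resting fibroblasts and of the matrix did not share this difference. The fibroblast markers had 6 of 12 genes positive (median log2 fold change -0.01), and the collagen list 7 of 13 (median 0.02). Where groups were apart they were mostly lower, in 4 of 12 fibroblast markers with 0 higher, and in 4 of 13 collagen genes with 1 higher (10.1% of all genes were apart lower). Col1a1 was at 92.8 and 85.1 CPM in the controls and at 73.8, 148.5 and 157 CPM in M149, M150 and M34, with the groups overlapping. Col4a2, a collagen of basement membranes, was the 1 collagen gene with an unadjusted p under 0.05, at 206 and 167 CPM against 126, 116 and 148 CPM (log2 fold change -0.52, SE 0.19). Its partner Col4a1 was at 586 and 551 CPM against 485, 469 and 545 CPM, also with the groups apart.

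All 17 interferon-stimulated genes tested had a positive log2 fold change, with a median of 0.70, and 0.97 without M149. In 9 of them the groups did not overlap on the higher side (12.3% of all genes), but 0 had an unadjusted p under 0.05. This list too was chosen with earlier results of these data known, so the counts are a description. Isg15, a ubiquitin-like protein, was at 16.1 and 20.4 CPM in the controls and at 21, 33.4 and 47.9 CPM in M149, M150 and M34. Irf7, the factor that amplifies the interferon response, was at 25.9 and 27.7 CPM against 30.003, 42.4 and 79.0 CPM. In both genes M149 was next to the controls and M34 highest. Ifit1 was at 14.98 and 11.2 CPM against 12.5, 26.0 and 26.9 CPM, with M149 between the controls. The summed level of the list was 494 and 509 CPM in the controls, 524 CPM in M149, and 826 and 936 CPM in M150 and M34.

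Markers of neutrophils, lymphocytes and red cells were mostly on the higher side. Those of mast cells (2 of 6 positive, median log2 fold change -0.17) were not. Nor were the MHC class II and dendritic cell genes (4 of 12 positive, median -0.04). In 2 of these 12 the groups were apart, both lower (10.1% of all genes). The contrast between these lists rested on M149. Without it 4 of 6 mast cell genes (median 0.03) and 8 of 12 MHC class II and dendritic cell genes (median 0.17) were positive. For neutrophils 10 of 12 genes were positive (median log2 fold change 1.90), with 6 apart on the higher side (12.3% of all genes) and 0 at an unadjusted p under 0.05. Levels were low here too. The list's median log2 CPM was -0.91 and -0.43 in the controls and 0.83, 0.405 and -0.05 in M149, M150 and M34. S100a8, a calcium-binding protein of neutrophils, was at 4.91 and 6.89 CPM in the controls and at 25.6, 25.4 and 24.9 CPM in M149, M150 and M34 (log2 fold change 2.10, SE 1.29). Its partner S100a9 was at 6.15 and 14.8 CPM against 58.4, 38.6 and 60.7 CPM (log2 fold change 2.33, SE 1.25). Both genes were alike in the 3 deficient libraries. After MI, S100a8 ranged from 5.05 to 124 CPM over libraries.

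For T and NK cells 9 of 10 genes were positive (median 0.996), and for B and plasma cells 6 of 7 (median 0.68), all at low levels. Cd79a, a chain of the B cell receptor, was at 0.178 and 0.634 CPM in the controls and at 1.57, 1.45 and 2.36 CPM (log2 fold change 2.14, SE 0.64). Jchain, the joining chain of secreted antibodies, was at 0.446 and 2.08 CPM against 5.49, 12.2 and 3.66 CPM (log2 fold change 2.46, SE 0.74). These were the 2 genes of the B cell list with an unadjusted p under 0.05. Without the control M45 their log2 fold changes were 3.29 for Cd79a and 3.95 for Jchain, and without the control M44 they were 1.5 and 1.74. Of the red cell genes 7 of 7 were positive (median 0.58), but the controls themselves differed, with the summed level at 1145 CPM in M44 and 2517 CPM in M45 against 1970, 4482 and 3866 CPM in M149, M150 and M34. Blood left in the tissue can carry all these cells, and its part in the neutrophil and lymphocyte values was not tested.

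The VEGF family and the vessels showed small differences. Of 12 genes of VEGF ligands, receptors and co-receptors, 3 were positive and 9 negative (median log2 fold change -0.13). The groups were apart in 0 of them (22.4% of all genes). Flt4, the receptor for VEGFC, was at 16.0 and 12.3 CPM in the controls and at 12.6, 11.1 and 15.4 CPM in M149, M150 and M34. Ccbe1 was at 5.53 and 7.88 CPM against 9.31, 6.41 and 9.28 CPM. The groups overlapped in both. Nrp1, a co-receptor of VEGF, was at 107 and 104 CPM against 110, 66.1 and 63.4 CPM, so that M149 stood with the controls. Of 8 lymphatic endothelial markers 0 were apart (22.4% of all genes), with a median of -0.10. Prox1, the defining factor of lymphatic endothelium, was at 36.1 and 44.5 CPM against 34.8, 41.0 and 38.9 CPM.

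Among 12 blood endothelial markers 9 were negative (median -0.22). On the lower side 4 were apart (10.1% of all genes), and on the higher side 2 were (12.3% of all genes). Cdh5, the cadherin of endothelial junctions, was at 149.4 and 141 CPM in the controls and at 88.9, 93.7 and 126 CPM (log2 fold change -0.50, SE 0.22, adjusted p = 1, edgeR). Pecam1 was at 288 and 269 CPM against 186, 203 and 254 CPM. In both genes M34 was nearest to the controls. Plvap, a protein of endothelial diaphragms, is not in this list and was named after its values were seen. Its level was 16.2 and 17.6 CPM against 10.8, 11.9 and 8.79 CPM, the groups being apart. Fabp4 was on the other side, at 5017 and 5248 CPM against 5304, 6111 and 5458 CPM.

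The cardiomyocyte lists had medians near 0, and 0 of their genes had an unadjusted p under 0.05. The sarcomere and Z-disc genes had 8 of 16 positive (median log2 fold change -0.0014). Myh6, the fast myosin heavy chain of the adult mouse heart, was at 5162 and 5305 CPM in the controls and at 3691, 5663 and 4081 CPM in M149, M150 and M34. The medians were 0.06 for 11 calcium handling genes, -0.06 for 18 respiratory chain subunits and -0.08 for 16 genes of fatty acid uptake and oxidation. In the last list 13 of 16 genes were negative and 4 were apart on the lower side (10.1% of all genes) against 0 on the higher side, Acadvl and Hadha among the 4. Without M149, 9 of the 16 were negative and 7 positive, with a median of -0.02. Hadha, a subunit of the mitochondrial trifunctional protein, was at 1286 and 1193 CPM against 758, 1048 and 972 CPM. Of the fetal and stress genes 7 of 9 were positive (median 0.20, and 0.37 without M149), with 0 apart (22.4% of all genes). Nppa, the atrial natriuretic peptide that ventricles make under load, was at 416 and 466 CPM against 513, 1240 and 387 CPM. M150 was the highest and M34 the lowest.

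Of 17 genes of the circadian clock, 9 had groups that did not overlap (22.4% of all genes), 6 higher and 3 lower. Arntl, the activator of the clock, was at 15.3 and 10.1 CPM in the controls and at 4.71, 4.12 and 9.52 CPM (log2 fold change -1.03, SE 0.44, unadjusted p = 0.0393, adjusted p = 1, edgeR). Dbp, an output of the clock, was at 74.0 and 80.8 CPM against 107, 103 and 91.2 CPM, and Nr1d2 at 103 and 125 CPM against 135, 167 and 147 CPM. Arntl was lower and Dbp, Nr1d2, Per3, Cry1 and Hlf were higher, with the groups apart in each. The hour of collection is not stated in the sources used here, and its part in these values was not tested.

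**Figure D5:**
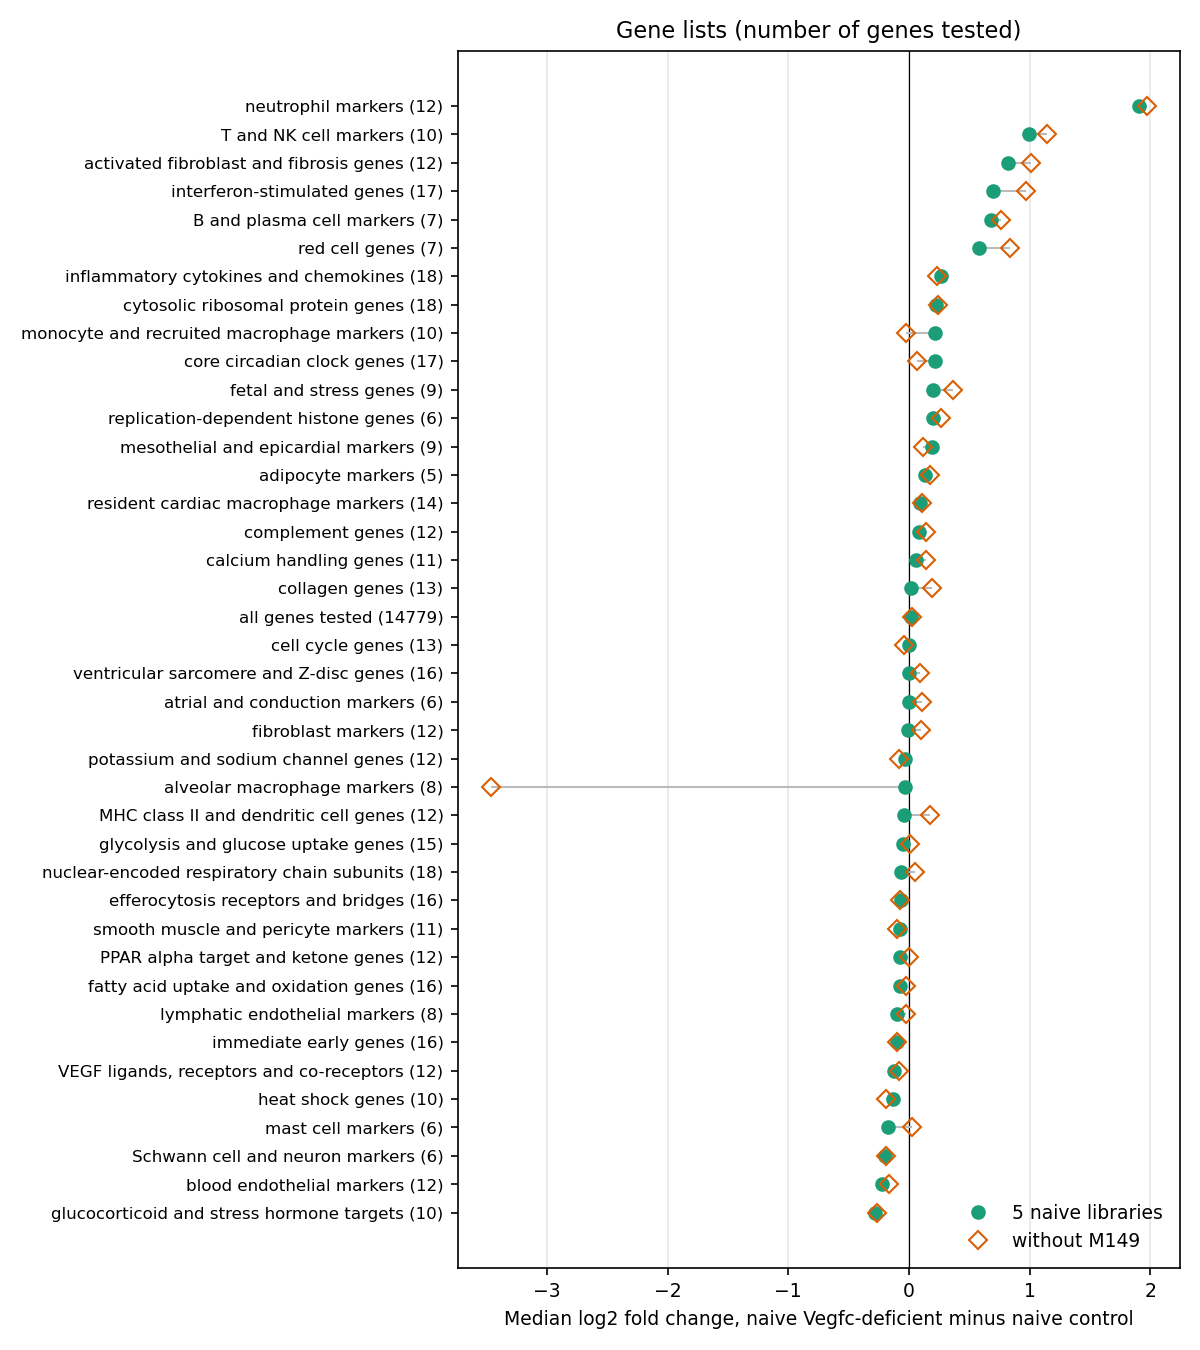
Median log2 fold change (naive Vegfc-deficient minus naive control) of each gene list with at least 5 genes tested, with all 5 naive libraries (filled circles) and without M149 (open diamonds), and the number of genes tested in brackets. The neutrophil, T and NK cell, activated fibroblast and interferon-stimulated lists lie at 1.90, 0.996, 0.82 and 0.70, and the alveolar macrophage list goes from -0.03 to -3.46 without M149.

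Of the remaining lists, inflammatory cytokines and chemokines had 16 of 18 genes positive (median 0.27) and 0 with an unadjusted p under 0.05. Cxcl9, a chemokine for T cells, was at 7.67 and 8.06 CPM in the controls and at 22.0, 15.6 and 44.1 CPM in M149, M150 and M34, the groups being apart. The receptors and bridges of efferocytosis had a median of -0.07 over 16 genes, and Mertk was at 28.7 and 26.6 CPM against 39.7, 22.5 and 22.7 CPM. Cytosolic ribosomal protein genes had 15 of 18 positive (median 0.22). Glucocorticoid targets had 8 of 10 negative (median -0.28), with 3 apart on the lower side (10.1% of all genes). Of the heat shock genes Dnajb1, a co-chaperone, was at 82.1 and 59.9 CPM against 49.9, 45.9 and 58.8 CPM, with the groups apart. The median of all genes tested was 0.01.

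The genotype difference was also compared between naive and infarcted hearts. In the interaction term edgeR called 0 of 14779 genes (0%) at an adjusted p under 0.05, 1226 (8.30%) had an unadjusted p under 0.05, and DESeq2 called 55. Every naive library had Y-linked counts, with Xist at 11.8 CPM or less, while the 6 MI libraries held 188 to 403 CPM of Xist, so sex and MI cannot be told apart in this interaction.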

How the data were processed

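Left ventricular RNA (total RNA, TruSeq stranded mRNA libraries) was sequenced by the authors, who deposited read counts per Ensembl gene, 1 table for each of the 11 libraries and 25006 genes in each, not normalized. The submitters' processing notes name cutadapt 1.13, STAR, HTSeq 0.6.1p1 and DESeq2 1.14.1 and the build mm10, without their settings. Positions and exon lengths were taken from GENCODE M21 on GRCm38 by gene identifier, with 24991 genes matched. Counts were tested with edgeR 4.0.16 in R 4.3.3 (filterByExpr by group, TMM factors, glmQLFit and glmQLFTest, 1 coefficient per group, all 11 libraries). All groups share 1 estimate of the spread, because the naive control group has 2 libraries. CPM are TMM-scaled, p-values were adjusted over all 14779 genes tested by Benjamini-Hochberg, and SE is the size of the log2 fold change divided by the square root of F. A group was called apart when every deficient library lay above, or below, both controls. DESeq2 1.42.0, limma-voom 3.58.1, other scalings and filters, the naive libraries alone and each naive library left out were the alternatives. The fitting script was tested on simulated counts.

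The gene lists and the comparison were chosen with earlier results of these data known. Genes were named by rule: the VEGF and lysozyme lists, the 20 most abundant, the 10 higher and 10 lower with the smallest p among genes apart, those called without M149 or by DESeq2, list members by level or difference, the 10 widest ranges, and 5 per side standing out in each library. Not all genes that the rule covers are reported here. Of 25006 genes the 13 mitochondrial ones have 0 counts. With 2 to 3 libraries per group, depth limits genes near the floor of 3 counts, and library number limits the rest.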

Additional observations from a re-analysis of the deposited data

How the results depend on the processing

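With all libraries edgeR called 0 genes, while DESeq2 called 14, limma-voom 6, edgeR with the naive libraries alone 2, and edgeR with the naive libraries alone and without M149 303. Leaving out 1 naive library at a time gave 0 to 17 calls, the 17 without M149, and 5007 to 6889 genes with groups apart, since fewer libraries overlap less often. The interaction with MI had 55 calls by DESeq2 and 0 to 1 when a naive library was left out. The median correlation between naive libraries was 0.9651 with a prior count of 0.5 and 0.966 over genes with a mean of at least 10 CPM. Of 588 log2 fold changes (42 genes under 14 alternatives), 511 kept direction and call, 59 kept direction and became called, and 18 changed direction, all of these in genes with overlapping groups. Chil3 became 0.0093 with the naive libraries alone. With 1 naive library left out, log2 fold changes ran from -0.17 to 0.30 for Vegfc, -3.79 to 0.13 for Lyz2, -3.94 to 0.32 for Itgax, -2.91 to 0.29 for Anpep, -1.71 to 0.27 for Lipa, -3.87 to 0.55 for Chil3, -2.87 to 0.068 for Egr2 and -2.06 to 0.36 for Soat1. For the 7 genes other than Vegfc the lowest value was that without M149 and the highest that without M150, and the cause was not tested. Of 588 list medians 555 moved by less than the spread between libraries and 33 by more. No paired analysis was possible because the library numbers are not shared between groups.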
